A study of Mus musculus with 60 samples.

Results

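Small nucleolar RNAs and small Cajal body RNAs are short noncoding RNAs that guide the chemical modification of other RNAs. The 28 genes described here are all those whose name begins with Snora, Snord or Scarna in at least 1 of the 10 deposited result tables of a mouse whole blood RNA sequencing (RNAseq) series, out of 49315 genes in its count tables. They comprise 14 box C/D RNAs (Snord), 8 box H/ACA RNAs (Snora) and 6 Cajal body RNAs (Scarna). The count tables hold 150 genes with these name beginnings. The other 122 are absent from the result tables, and 72 of them had 0 counts in all 60 mice. The highest total of any of the 122 over the 60 mice was 482 counts, which is more than the total of some of the 28.

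Male CD2F1 mice, bought at an age of 5 to 6 weeks, received vehicle or BIO 300 by mouth over 6 days, in 12 doses spaced 12 h apart. BIO 300 is a formulation of synthetic genistein, a soy isoflavone. The doses were 0 (vehicle), 50 (low), 100 (medium) or 200 mg/kg (high). Blood was drawn on Day 0, which was 24 h after the last dose, or on Day 1, which was 48 h after it. Groups of mice given vehicle or the high dose also received 9.2 Gy total-body irradiation (TBI) with cobalt gamma rays on Day 0 and were bled on Day 1. The 10 groups were thus vehicle and each of the 3 doses on Day 0, the same 4 on Day 1, and vehicle with TBI and the high dose with TBI on Day 1. Each group had 6 mice, each mouse gave 1 library and was bled once, so the days compare different mice. Mice of every group were anaesthetised with isoflurane for the blood draw.

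Box C/D RNAs carry a C box and a D box, bind fibrillarin, and guide the methylation of ribose in ribosomal RNA. Box H/ACA RNAs end a few bases after an ACA box, bind dyskerin, and guide the conversion of uridine to pseudouridine. Cajal body RNAs carry either or both kinds of box and guide the same reactions on spliceosomal RNAs. Most of these RNAs are cut from introns of host genes, many of which encode ribosomal proteins or belong to the translation machinery.

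The sequences of 10 of the genes are printed because the results below turn on them. They come from the GENCODE M21 transcripts (build GRCm38), 5′ to 3′. In box C/D RNAs and Scarna2, capitals mark the C box core TGATGA and the last CTGA, the D box, and in the stretch of Scarna10 the last CTGA. Scarna10 spans chr6:125186359-125186683 and Scarna2 chr3:108554338-108554751, and their 3′ ends are shown. In box H/ACA RNAs and Scarna13, capitals mark the last ACA. The first 3 are Cajal body RNAs, which with Snord17 held most of the reads.
Scarna10, last 100 bases (chr6:125186359-125186458, minus strand): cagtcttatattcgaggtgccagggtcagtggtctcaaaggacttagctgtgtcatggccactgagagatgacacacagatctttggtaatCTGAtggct
Scarna2, last 100 bases (chr3:108554338-108554437, minus strand): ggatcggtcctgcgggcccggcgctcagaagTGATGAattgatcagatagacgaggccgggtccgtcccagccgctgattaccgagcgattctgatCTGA
Scarna13 (chr12:105031075-105031349, minus strand): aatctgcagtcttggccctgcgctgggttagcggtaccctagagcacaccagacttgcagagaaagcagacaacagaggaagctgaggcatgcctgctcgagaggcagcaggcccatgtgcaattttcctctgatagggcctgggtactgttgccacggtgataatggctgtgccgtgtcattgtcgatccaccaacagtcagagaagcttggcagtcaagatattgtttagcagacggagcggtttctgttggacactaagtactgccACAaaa
Snord17 (chr2:144265979-144266216, minus strand): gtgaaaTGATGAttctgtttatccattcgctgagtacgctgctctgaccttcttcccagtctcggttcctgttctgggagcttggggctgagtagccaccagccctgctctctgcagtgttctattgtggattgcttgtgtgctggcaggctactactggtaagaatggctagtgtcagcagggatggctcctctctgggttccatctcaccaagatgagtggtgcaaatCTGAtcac
Snord89 was the only gene of the 28 called higher after TBI.
Snord89 (chr1:39548745-39548854, minus strand): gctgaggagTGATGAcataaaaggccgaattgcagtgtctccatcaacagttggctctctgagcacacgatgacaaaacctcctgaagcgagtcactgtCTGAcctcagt
Snord49a and Snord49b lie 299 bases apart in introns of 1 host gene and are shown to compare their letters.
Snord49a (chr11:62603450-62603521, plus strand): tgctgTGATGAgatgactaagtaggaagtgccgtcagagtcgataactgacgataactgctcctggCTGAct
Snord49b (chr11:62603079-62603150, plus strand): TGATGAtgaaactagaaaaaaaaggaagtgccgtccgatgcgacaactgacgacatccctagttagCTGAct
Snord100 and Snora33 lie 274 bases apart in the same host gene, Rps12, and both were close to 0 counts at the high dose on Day 1.
Snord100 (chr10:23785750-23785823, minus strand): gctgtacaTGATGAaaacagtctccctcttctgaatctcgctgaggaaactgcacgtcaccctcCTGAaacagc
Snora33 (chr10:23785347-23785475, minus strand): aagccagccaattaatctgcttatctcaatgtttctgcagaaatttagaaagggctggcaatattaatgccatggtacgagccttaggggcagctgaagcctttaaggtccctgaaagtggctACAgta
Snora28 was called higher at the medium and high dose on Day 1.
Snora28 (chr12:111540941-111541067, plus strand): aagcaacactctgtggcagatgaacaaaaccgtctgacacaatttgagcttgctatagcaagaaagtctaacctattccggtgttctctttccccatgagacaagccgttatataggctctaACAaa

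The boxes fit the class that the names give. CTGA was found in the last 20 bases of 14 of 14 box C/D genes, against 34.8% of the 1558 genes annotated as small nucleolar or Cajal body RNA in the count tables. TGATGA was found in the first 20 bases of 9 of the 14, against 21.3% of the 1558. ACA was found in the last 8 bases of 8 of 8 box H/ACA genes, against 47.6% of the 1558. These are matches on the transcript strand and describe letters, not function. Snord43 is annotated as a miRNA gene in GENCODE M21 although its name and its CTGA are those of a box C/D RNA. Snord49a and Snord49b have the same base at 46 of 72 positions and share no run longer than 13 bases.

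Reads over these genes were few and very unequal. The 28 genes together held 332411 counts, 0.0217% of all counts in the 60 libraries. Scarna10, Scarna2, Scarna13 and Snord17 held 92.8% of them, with a mean of 333 to 2260 counts per mouse. Each of the other 24 genes averaged between 6.15 and 46.3 counts per mouse. Library totals ranged from 15099415 to 45589415 counts. Each library came from its own mouse, so p-values measure the spread between mice.

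Compared per length, in CPM (counts scaled to a common library size) per kilobase averaged over the 60 mice, Scarna10 was highest at 242.3, followed by Scarna13 at 158.0, Scarna2 at 122.2 and Snord17 at 47.1. These 4 RNAs are 238 to 414 bases long. Scarna6, which is 265 bases long, reached 5.76 CPM per kilobase, and Snora73a, which is 205 bases long, was the lowest of the 28 at 1.54. The 22 genes shorter than 200 bases lay between 2.04 and 24.7 CPM per kilobase with a median of 3.38, the highest being Snord104 and, after it, Snora28 at 10.7. Whether short and long RNAs were recovered alike was not tested, so these are levels of reads. CPM here and below is scaled by TMM (trimmed mean of M values), which assumes that most genes do not differ between libraries, unless total counts are named.

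Markers of blood cell types differed between the groups, and some libraries held carry-over RNA. At the low dose on Day 0, 5 of 7 platelet markers and 1 of 4 haemoglobin genes were called lower. At the medium and high dose on Day 1, 7 of 7 platelet markers and 4 of 4 haemoglobin genes were called higher, and 8 of 8 B cell and 8 of 8 T cell markers lower, and 2 of 8 neutrophil markers were higher at the medium dose. After TBI, against either vehicle group, 7 of 7 platelet and 7 of 8 neutrophil markers were higher, and 8 of 8 B cell and 8 of 8 T cell markers lower, with 1 of 16 hepatocyte genes higher against Day 0 and 2 against Day 1. Summed over the B cell markers, CPM ranged from 1486 to 2362 in vehicle mice on Day 1, 420.3 to 1043 at the medium dose, 260.3 to 857.9 at the high dose and 96.9 to 277.8 after TBI. The summed platelet markers ranged from 1885 to 3814, 14421 to 32641, 13854 to 24240 and 3922 to 27416 in the same order. No marker was at 0 counts in a whole group, and the part of cell makeup in the results below was not tested. In whole blood, fewer cells of a type and less RNA per cell cannot be told apart. In 10 mice of 9 groups, at least 10 of 16 hepatocyte genes exceeded 10 CPM, which marks liver RNA in those libraries, and the counts of calls without them are given for the comparisons in which they changed.

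No gene of the 28 was called on Day 0, or at the low dose on either day. A gene was called where its log2 fold change passed 1 in either direction with an adjusted p below 0.05 in edgeR's quasi-likelihood test with Benjamini-Hochberg adjustment over all genes tested, and all 28 genes passed its minimum of 10 counts over 12 mice in every comparison. At the low dose on Day 0, 0 genes were called, where 4.5% of all 24485 genes were, 0.127% higher and 4.38% lower, 1 gene passed an unadjusted p of 0.05, and the log2 fold changes ranged from -0.37 to 0.74. At the medium and high dose on Day 0, 0 of the 28 passed even the unadjusted threshold, and the share of all genes called was 0%. At the low dose on Day 1, 4 of the 28 passed it, where again 0% of all genes were called. DESeq2 called 0 of the 28 in these 4 comparisons. In each of them all 28 genes overlapped between the groups, where the share of all genes that did not was 2.54% above and 4.39% below vehicle at the low dose on Day 0, 0.05% and 0.138% at the medium dose, 0.122% and 0.177% at the high dose, and 0.506% and 0.983% at the low dose on Day 1. On the scale of total counts 7 genes were called higher at the low dose on Day 0, with all genes shifted by a median of 0.66 on the log2 scale. Of all 24485 genes, 2563 were called higher and 307 lower on that scale.

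The vehicle groups of Day 0 and Day 1 both served as controls for the irradiated mice. Between them Snord17 had the largest log2 fold change of the 28. Snord17, a box C/D RNA that guides methylation of 28S ribosomal RNA, ranged from 6.28 to 17.1 CPM with a median of 12.6 in vehicle mice on Day 0. On Day 1 it ranged from 11.1 to 38.7 CPM with a median of 30.4. Only mouse 30 of the Day 1 group lay within the Day 0 range. The log2 fold change was 1.27 ± 0.29 (SE, n = 6 per group) with an adjusted p of 0.204 in edgeR's quasi-likelihood test, which called 0% of all genes in this comparison. DESeq2 gave an adjusted p of 0.0030, and it called 37 of all 24375 genes, 1 higher and 36 lower. Of the 28, 2 passed an unadjusted p of 0.05 here, Snord17 and Scarna6, and all 28 overlapped between the days, where 0.476% of all genes lay above and 0.217% below.

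**Figure D1:**
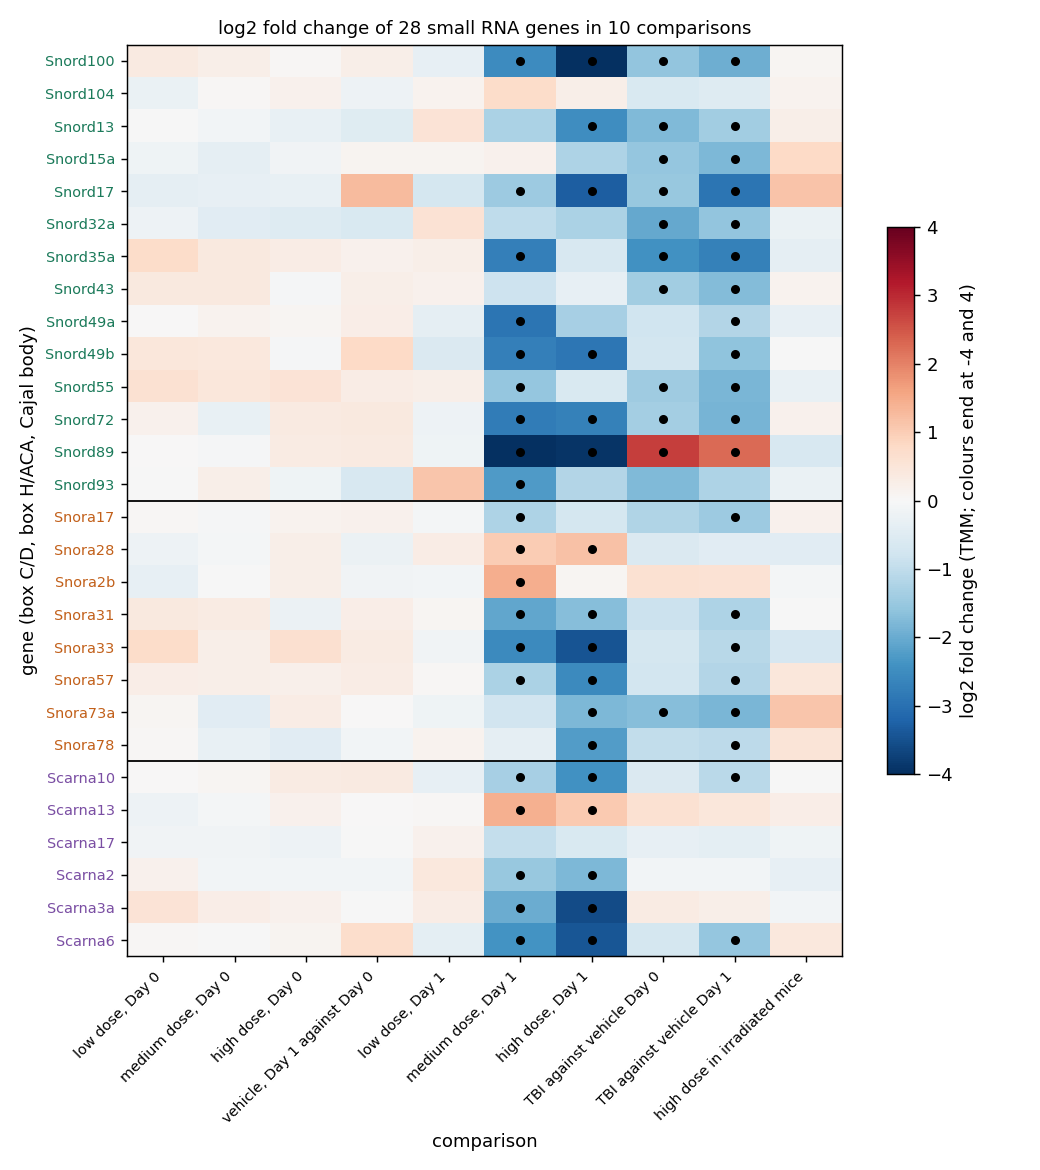
Log2 fold change of each of the 28 genes (rows, by class, with green names for box C/D, orange for box H/ACA and purple for Cajal body RNAs) in the 10 comparisons (columns) on the TMM scale. Blue is lower and red higher in the first-named group, black dots mark calls, and the calls lie in 4 columns, the medium and high dose on Day 1 and TBI against either vehicle group.

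At the medium dose on Day 1 most of the 28 genes were lower than in vehicle mice, in all 3 classes, while 3 were higher. Of the 28 genes 17 were called lower and 3 higher, 20 in all or 71.4%, where 48.8% of all 23699 genes were called, 30.6% lower and 18.2% higher. At the high dose 15 were called lower and 2 higher, where 47.8% of all 23513 genes were called, 30.5% lower and 17.3% higher. The median log2 fold change of the 28 was -1.39 at the medium and -1.76 at the high dose, beside -0.38 and -0.48 over all genes. Both doses were compared with the same 6 vehicle mice, and 14 genes were called in the same direction at both, 70% of those called at the medium and 82.4% of those at the high dose. Without mice holding liver RNA, 14 were called lower and 3 higher at the medium dose, where 6849 of all 22691 genes were called lower and 4311 higher. At the high dose 17 were then called lower and 2 higher, where 7540 of all 22601 genes were called lower and 4245 higher. By class, 9 of 14 box C/D, 6 of 8 box H/ACA and 5 of 6 Cajal body RNAs were called at the medium dose, and 6, 6 and 5 at the high dose.

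Scarna10, a Cajal body RNA that guides modification of the U5 spliceosomal RNA, had the most reads of the 28. In vehicle mice on Day 1 it ranged from 42.1 to 159.5 CPM with a median of 130.1. At the medium dose it ranged from 18.4 to 85.6 CPM with a median of 38.1, and at the high dose from 6.94 to 33.7 with a median of 20.9. The high dose mice all lay below the lowest vehicle mouse, and the medium dose mice overlapped the vehicle mice. The log2 fold changes were -1.32 ± 0.38 (SE, adjusted p = 0.0071) and -2.44 ± 0.39 (adjusted p = 9.0e-05) by edgeR with 6 mice per group.

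Scarna2, a Cajal body RNA that guides modification of the U2 spliceosomal RNA, separated the groups at both doses. Its CPM ranged from 39.1 to 66.9 with a median of 58.6 in vehicle mice, from 9.02 to 35.4 with a median of 15.8 at the medium dose, and from 8.35 to 22.3 with a median of 16.3 at the high dose. No treated mouse reached the lowest vehicle mouse. The log2 fold changes were -1.52 ± 0.30 (adjusted p = 0.00050) and -1.81 ± 0.21 (adjusted p = 3.3e-06).

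Scarna13, also a Cajal body RNA, was called higher. Its CPM ranged from 22.6 to 39.5 with a median of 31.4 in vehicle mice, from 62.7 to 100.1 with a median of 82.5 at the medium dose and from 30.1 to 75.3 with a median of 69.3 at the high dose. Every medium dose mouse lay above every vehicle mouse, and the lowest high dose mouse lay among the vehicle mice. The log2 fold changes were 1.42 ± 0.16 (adjusted p = 4.5e-06) and 1.03 ± 0.20 (adjusted p = 0.00048). By total counts they were 0.02 and -0.55, neither called. The call at the high dose also fell below the fold limit when mouse 26, 30, 45, 47 or 48 was left out, with log2 fold changes of 0.89 to 1.18 over the 12 omissions.

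The ratio of 2 genes in 1 library does not depend on the scaling. There were 0.235 to 0.537 counts of Scarna13 for each count of Scarna10 in vehicle mice on Day 1, with a median of 0.253. At the medium dose the ratio ran from 1.17 to 3.40 with a median of 2.16, and at the high dose from 1.82 to 5.89 with a median of 3.33. In all 12 mice of these groups Scarna13 had more counts than Scarna10, and in all 6 vehicle mice it had fewer. Against Scarna2 the ratio had a median of 0.576 in vehicle mice, 5.39 at the medium and 4.00 at the high dose, and again the groups did not overlap. In irradiated vehicle mice the ratio to Scarna10 ran from 0.535 to 1.11 with a median of 0.846, and with the high dose and TBI from 0.783 to 1.23 with a median of 0.919. These ratios are descriptions of the libraries and were given no test. Scarna10 overlaps exons of its host Ncapd2 and of Gm28967, and Scarna13 overlaps Mir3069, all on the same strand. Reads of overlapping genes could not be told apart by position there.

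**Figure D2:**
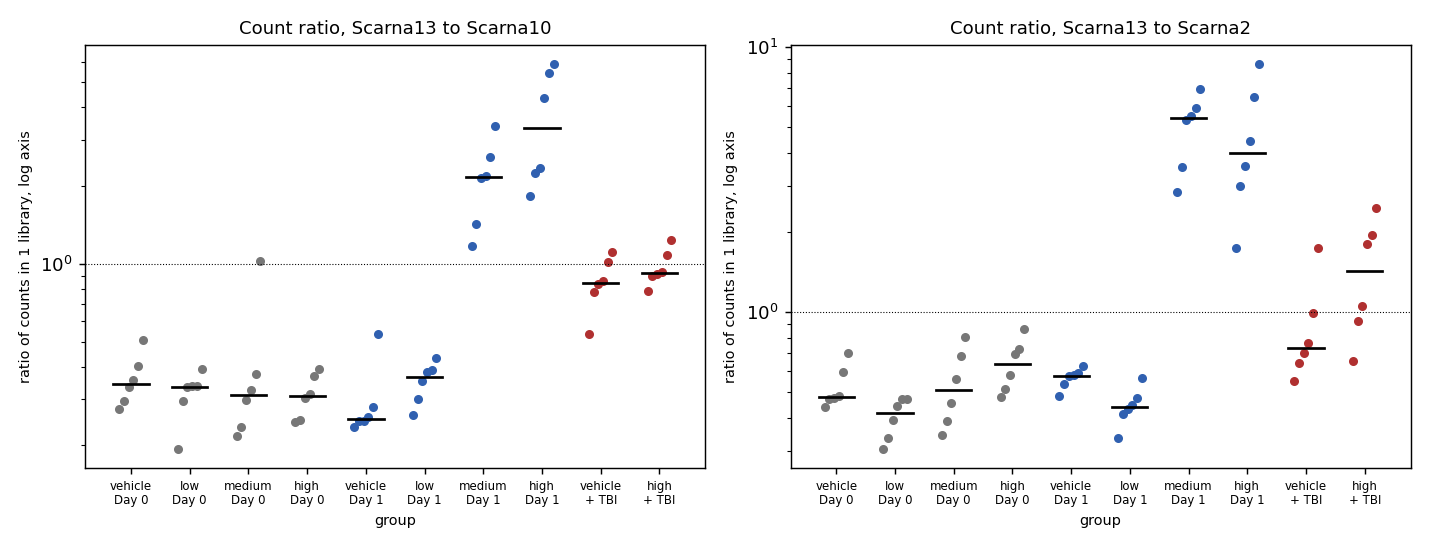
Counts of Scarna13 divided by counts of Scarna10 (left) and of Scarna2 (right) in each library, on a log axis, in the 10 groups of 6 mice, with a bar at the group median and a dotted line at a ratio of 1. Grey points are Day 0, blue points Day 1 and red points irradiated mice; the medium and high dose mice of Day 1 are all above 1 in both panels, with medians of 2.16 and 3.33 against Scarna10.

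Among the Cajal body RNAs with fewer reads, Scarna6 was lower at both doses. It ranged from 1.29 to 4.07 CPM with a median of 2.87 in vehicle mice, from 0.181 to 0.773 with a median of 0.471 at the medium dose and from 0 to 0.620 with a median of 0.268 at the high dose, without overlap. Its log2 fold changes were -2.41 ± 0.35 and -3.43 ± 0.57 (adjusted p = 4.3e-05 and 0.00012). Scarna3a had 80 counts over the 6 vehicle mice, 8 at the medium dose and 2 at the high dose. Its ratio of CPM at the high dose to vehicle was 0.0639, with a 95% interval of 0.0076 to 0.238 that covers counting error only. Scarna17 was not called at either dose, with log2 fold changes of -0.96 and -0.62.

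**Figure D3:**
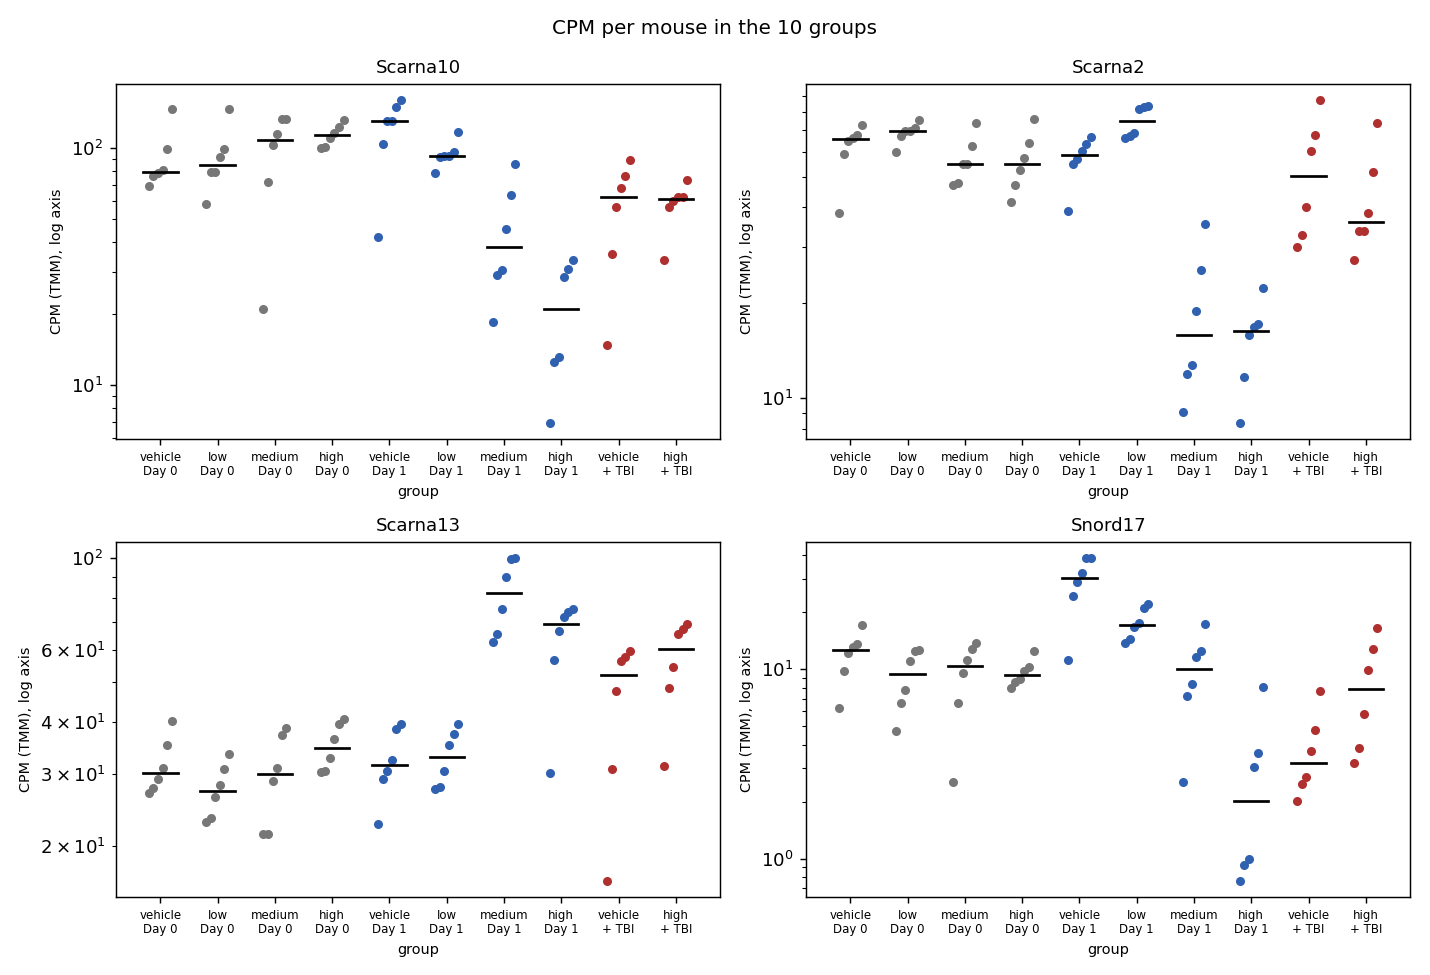
CPM per mouse on a log axis for the 4 genes with the most reads in the 10 groups of 6 mice, with a bar at the median. Grey points are Day 0, blue points Day 1 and red points irradiated mice; Scarna10, Scarna2 and Snord17 lie lower at the medium and high dose on Day 1, Scarna13 higher, with medians for Scarna2 of 15.8 and 16.3 against 58.6 in vehicle mice.

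Snord17 had 30.4 CPM (median; range 11.1 to 38.7) in vehicle mice on Day 1. At the medium dose it ranged from 2.53 to 17.3 CPM with a median of 9.99, and at the high dose from 0.759 to 8.04 with a median of 2.01. The high dose mice all lay below the vehicle mice, and the medium dose mice overlapped them. The log2 fold changes were -1.46 ± 0.38 (adjusted p = 0.0041) and -3.30 ± 0.51 (adjusted p = 6.6e-05). Vehicle mice on Day 0 had a median of 12.6, so the distance to the medium dose depends on which vehicle group is taken.

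Among the other box C/D RNAs, Snord89 fell to almost no reads, with 12 to 30 counts in each vehicle mouse, 128 in all, beside 2 counts over the 6 medium dose mice and 3 over the 6 high dose mice. Its ratio of CPM to vehicle was 0.0364 (95% interval 0.0044 to 0.134) at the medium dose and 0.0599 (0.0122 to 0.179) at the high dose, the intervals covering counting error only. Snord100, which guides methylation of 18S ribosomal RNA, had 5 to 24 counts in each vehicle mouse and 0 counts in every high dose mouse. Set against a floor of 3 counts over the group, it was at least 10.6-fold lower, and the 95% upper limit of its ratio to vehicle, which also counts the error of the vehicle reads, was 0.119. At the medium dose it had 6 counts, 5 of them in mouse 37.

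Snord49b and Snord72 were called lower at both doses, with log2 fold changes of -2.74 and -2.79 at the medium dose and -2.88 and -2.71 at the high dose. At the high dose mouse 43 held 8 of the 9 counts of Snord72 and all 3 of Snord89, and both calls held when any single mouse was left out. Snord49a and Snord55 were called lower at the medium dose, with log2 fold changes of -2.92 and -1.54. So were Snord35a and Snord93, each with 3 counts over the medium dose mice, at 0.127 (95% interval 0.0254 to 0.391) and 0.170 (0.0337 to 0.534) of the vehicle CPM, counting error only. Without mice holding liver RNA, Snord55 and Snord93 lost the call. These 4 genes were not called at the high dose, where mouse 43 held 16 of the 17 counts of Snord35a, 23 of the 35 of Snord49a, 11 of the 17 of Snord55 and all 8 of Snord93. Mouse 43 also held 17 of 22 counts of Snord43. It was the high dose mouse of Day 1 with liver RNA, with 16 of 16 hepatocyte genes above 10 CPM. Without it Snord49a was called lower with a log2 fold change of -2.11, and Snord35a and Snord93, with 1 and 0 counts left, were called lower too. Snord43 and Snord32a were not called at either dose.

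Snord104 and Snord15a, which had the most reads of the box C/D RNAs after Snord17, were called at neither dose. Snord104, which guides methylation of 28S ribosomal RNA, ranged from 1.13 to 2.30 CPM in vehicle mice, 1.99 to 3.41 at the medium and 1.19 to 2.48 at the high dose. Its log2 fold changes of 0.74 and 0.24 were not calls, and by total counts they were -0.64 and -1.28. Snord15a, a 28S guide too, had log2 fold changes of 0.16 and -1.24 that were not calls (adjusted p = 0.65 and 0.089), the first of them turning to -1.23 by total counts and to -0.027 without mouse 30. Snord13, which guides an acetylation of 18S ribosomal RNA, had 80 counts over the vehicle mice, 14 at the medium and 5 at the high dose, and of the doses was called at the high one (log2 fold change -2.49 ± 0.64, adjusted p = 0.0035). A test between the doses was not run.

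Of the 8 box H/ACA RNAs, 4 were called lower and 2 higher at the medium dose, and 5 lower and 1 higher at the high dose. Snora57, which guides pseudouridine in 18S ribosomal RNA, ranged from 1.03 to 1.74 CPM with a median of 1.57 in vehicle mice, from 0.181 to 1.27 with a median of 0.415 at the medium dose and from 0.062 to 0.391 with a median of 0.25 at the high dose. The high dose mice lay below all vehicle mice, and the log2 fold changes were -1.26 ± 0.40 and -2.54 ± 0.37 (adjusted p = 0.014 and 3.9e-05). Snora33, a 28S guide, had 105 counts in vehicle mice, 7 at the medium and 3 at the high dose, where its ratio to vehicle was 0.0730 (95% interval 0.0148 to 0.219, counting error only). Snora31 was called lower at both doses, with log2 fold changes of -2.08 and -1.71. Snora17 was called lower at the medium dose and not at the high dose, a call lost without mouse 37, and Snora73a and Snora78 at the high and not at the medium dose. Snora73a, which takes part in the cutting of the 18S precursor, lost its call at the high dose without mouse 27, 28, 29, 43, 46 or 47, with adjusted p up to 0.075.

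Snora28, a guide for 18S ribosomal RNA, and Snora2b were the H/ACA RNAs called higher. Snora28 ranged from 0.832 to 1.32 CPM with a median of 1.10 in vehicle mice, from 1.38 to 3.79 with a median of 1.77 at the medium dose and from 1.13 to 3.90 with a median of 2.36 at the high dose. The medium dose mice lay above all vehicle mice and the high dose mice overlapped them. The log2 fold changes were 1.00 ± 0.26 and 1.17 ± 0.31 (adjusted p = 0.0043 and 0.0042), and by total counts -0.45 and -0.44. The first call lies on the fold limit and was lost without mouse 28, 29, 30, 39 or 41, with log2 fold changes of 0.75 to 1.09 over the omissions, and the second was lost without mouse 47 at 0.98. Snora2b was called at the medium dose (1.46 ± 0.33, adjusted p = 0.0014), with 0.07 by total counts. Snora28 overlaps an exon of its host Eif5, whose own log2 fold changes were 1.14 and 1.37, and reads of the 2 genes could not be told apart by position there.

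**Figure D4:**
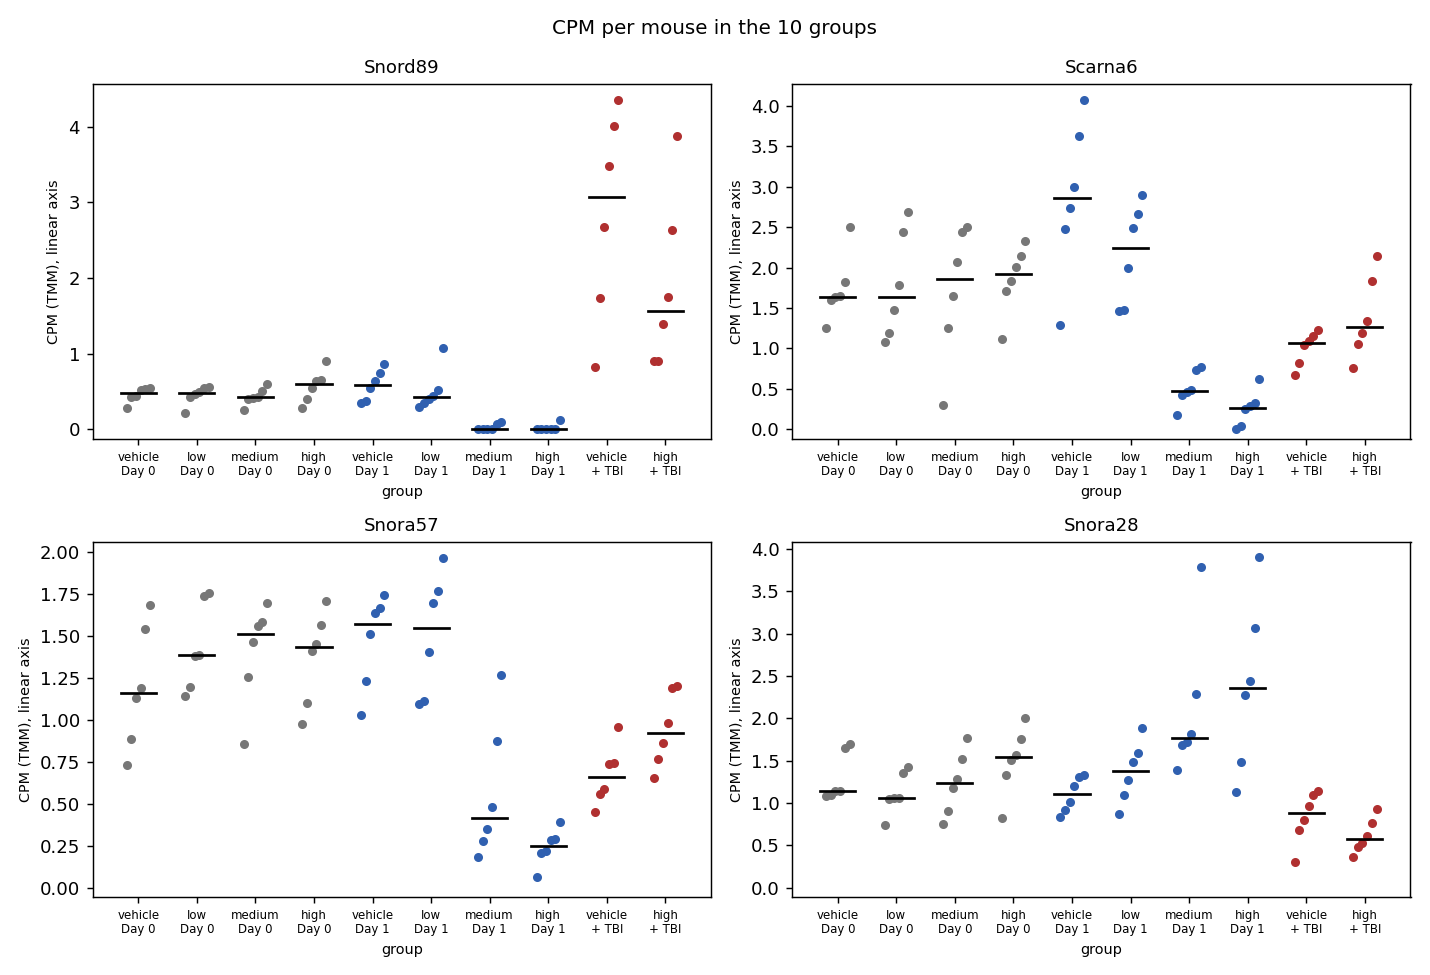
CPM per mouse on a linear axis for Snord89, Scarna6, Snora57 and Snora28 in the 10 groups of 6 mice, with a bar at the median. Grey points are Day 0, blue points Day 1 and red points irradiated mice; Snord89 is at or near 0 at the medium and high dose on Day 1 and has a median of 3.07 in irradiated vehicle mice.

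The scaling bears on these results. At the medium and high dose TMM factors averaged 0.565 and 0.521, against 1.43 in vehicle mice on Day 1, and by total counts the median of all genes shifted by -1.38 and -1.48 on the log2 scale. By total counts 24 of the 28 genes were called lower and 0 higher at the medium dose, where 14735 of all 23699 genes were called lower and 980 higher. At the high dose 25 were called lower and 0 higher, where 15407 of all 23513 genes were called lower and 712 higher. The 17 and 15 genes called lower with TMM were also called lower by total counts. Without overlap between the groups on the TMM scale, 10 genes lay below vehicle and 3 above at the medium dose, where 30.5% and 17.2% of all genes did so. At the high dose 14 lay below and 0 above, beside 30.5% and 16.5% of all genes.

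**Figure D5:**
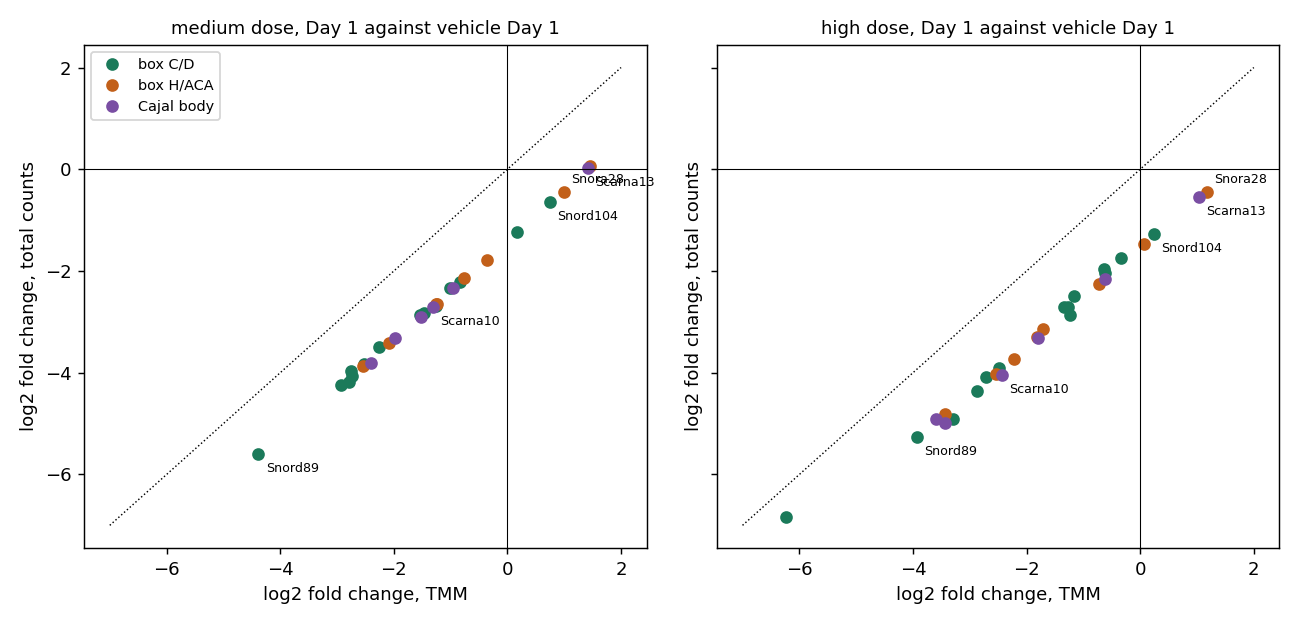
Log2 fold change by TMM (horizontal) and by total counts (vertical) of the 28 genes at the medium (left) and high dose (right) on Day 1 against vehicle, with colours by class and a dotted line where both are equal. All points lie below the dotted line, and those right of 0 by TMM, among them Scarna13 and Snora28, lie near or below 0 by total counts.

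Summed over a class, medians were lower at both doses than in vehicle mice. The 6 Cajal body RNAs summed to 105.8 to 267.6 CPM with a median of 222.1 in vehicle mice on Day 1, 90.9 to 222.9 with a median of 141.4 at the medium dose and 54.5 to 121.6 with a median of 104.3 at the high dose. The 13 box C/D RNAs without Snord17 summed to 5.53 to 9.06 CPM with a median of 8.15, then 3.89 to 6.00 with a median of 4.68, then 1.63 to 5.09 with a median of 3.58. The 8 box H/ACA RNAs summed to medians of 5.39, 4.40 and 3.54 CPM with ranges that overlapped. These sums are descriptions without a test.

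After TBI most box C/D RNAs fell and Snord89 rose. In irradiated vehicle mice 19 of the 28 genes were called lower and 1 higher than in vehicle mice on Day 1, where 36% of all 25146 genes were called, 16.4% lower and 19.6% higher. Against vehicle mice on Day 0, 10 were lower and 1 higher, where 26.9% of all 24751 genes were called, 11.8% lower and 15.1% higher. The median log2 fold change of the 28 was -1.25 and -0.83, beside 0.09 and 0.18 over all genes. By class, 12 of 14 box C/D, 6 of 8 box H/ACA and 2 of 6 Cajal body RNAs were called against Day 1, and 10, 1 and 0 against Day 0. The comparisons share the irradiated mice. Without mice that held liver RNA, which leaves 4 irradiated and 5 vehicle mice, 11 genes were called lower and 2 higher against Day 1. Of all 23274 genes, 5476 were called lower and 4813 higher there. The calls of Scarna10, Snora33, Snora57, Snora78, Snord13, Snord32a, Snord43 and Snord49a were lost there, and Snora2b was called higher. Against Day 0, 11 were then called lower and 1 higher, with Snord43 lost and Snora17 and Snord93 gained. Of all 22568 genes, 4838 were then called lower and 4431 higher.

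Snord17 fell after TBI. Its CPM in irradiated vehicle mice ranged from 2.01 to 7.67 with a median of 3.21, below every vehicle mouse of Day 1 and overlapping those of Day 0. The log2 fold change was -2.92 ± 0.39 (SE, n = 6 per group, adjusted p = 8.2e-05 by edgeR) against Day 1 and -1.52 ± 0.36 (adjusted p = 0.0053) against Day 0. Without mice holding liver RNA it was -2.52 and -1.46.

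Snord89 was the 1 gene of the 28 called higher after TBI, against either vehicle group. It ranged from 0.817 to 4.35 CPM with a median of 3.07 in irradiated vehicle mice, 26 to 108 counts per library. Vehicle mice had 0.278 to 0.540 CPM with a median of 0.476 on Day 0 and 0.342 to 0.857 with a median of 0.592 on Day 1. All irradiated mice lay above all Day 0 mice, and the lowest of them lay among the Day 1 mice. The log2 fold change was 2.75 ± 0.42 against Day 0 and 2.26 ± 0.41 against Day 1 (adjusted p = 0.00034 and 0.00070), and by total counts 2.51 and 1.80. Against Day 0 it was the 1 gene of the 28 above all vehicle mice, and 6 lay below, beside 8.49% and 10.3% of all genes. Against Day 1, 0 lay above and 7 below, beside 11.1% and 14% of all genes.

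Besides Snord17, 8 box C/D RNAs were called lower against both vehicle groups. Snord15a, in an intron of Rps3, ranged from 0.225 to 0.630 CPM in irradiated mice, 0.548 to 1.62 in vehicle mice on Day 0 and 0.553 to 1.64 on Day 1. The irradiated mice overlapped both vehicle groups, and the log2 fold change was -1.55 ± 0.36 against Day 0 and -1.78 ± 0.35 against Day 1 (adjusted p = 0.0049 and 0.0013). Snord32a and Snord35a, 946 bases apart in Rpl13a, had log2 fold changes of -2.03 and -2.42 against Day 0 and -1.57 and -2.69 against Day 1. Snord43, Snord55, Snord72, Snord100 and Snord13 were the others, with log2 fold changes between -1.36 and -1.95. Snord43 and Snord72 lost their calls against Day 0 in 7 and 9 of 12 omissions of a single mouse, with adjusted p up to 0.11. Against Day 1 the call of Snord13 was lost in 4 of 12 omissions, with adjusted p up to 0.071, and those of Snord32a and Snord43 in 1 each.

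Of the box H/ACA RNAs Snora73a was called lower against both vehicle groups (log2 fold changes -1.71 ± 0.41 and -1.82 ± 0.43, adjusted p = 0.0058 and 0.0040). Snora57 ranged from 0.451 to 0.959 CPM in irradiated mice, below all vehicle mice of Day 1, with a log2 fold change of -1.16 ± 0.25 (adjusted p = 0.0021) that became -0.91 and no call without mice holding liver RNA. Against Day 0 its change of -0.74 was not a call (adjusted p = 0.070). Snora17, Snora31, Snora33 and Snora78 were called lower against Day 1 and not against Day 0, with log2 fold changes against Day 1 of -1.46, -1.25, -1.12 and -1.03. The calls of Snora33 and Snora78 were lost in 9 and 7 of 12 omissions of a single mouse, with adjusted p up to 0.077 and 0.082. Snord49a and Snord49b were likewise called against Day 1 alone of the vehicle groups, at -1.17 and -1.62. Scarna3a, Scarna17, Snora2b, Snord93 and Snord104 were called against neither, with log2 fold changes from -1.24 to 0.58 against Day 1. Snora28, called higher at the medium and high dose, had log2 fold changes of -0.57 and -0.45 after TBI, not called.

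Of the 3 Cajal body RNAs with the most reads, only Scarna10 was called after TBI. Scarna2 ranged from 29.9 to 87.4 CPM with a median of 50.1 in irradiated mice, which spans the vehicle mice of both days, and its log2 fold change was -0.11 ± 0.29 against Day 0 and -0.12 ± 0.27 against Day 1 (adjusted p = 0.79 and 0.72). Without mouse 51, which held liver RNA, the second was 0.026. Scarna13 had log2 fold changes of 0.61 and 0.45, not called, and Scarna10 had -0.57 and -1.09. The last was a call (adjusted p = 0.042) that was lost in 9 of 12 omissions of a single mouse and was -0.66 without mice holding liver RNA. Scarna6 was called against Day 1 (-1.54 ± 0.28, adjusted p = 0.00076) and not against Day 0 (-0.71 ± 0.23, adjusted p = 0.031).

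In irradiated mice no gene differed by a call between the high dose and vehicle. In the comparison of the high dose with vehicle, both with TBI, 0 of the 28 genes were called by edgeR or DESeq2, where 0% of all 24916 genes were called, and 1 of the 28 passed an unadjusted p of 0.05. That gene was Snord17, with 3.18 to 16.5 CPM and a median of 7.82 with the high dose and TBI, a log2 fold change of 1.13 ± 0.47 and an adjusted p of 1.00. Snord89 ranged from 0.899 to 3.87 CPM with a median of 1.57 with the high dose and TBI, a log2 fold change of -0.63 ± 0.46. All 28 genes overlapped between these groups, where 0.0482% of all genes lay above and 0.0201% below.

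The test of the difference itself compared the effect of the high dose on Day 1 with and without TBI. In 16 of the 28 genes these effects differed, 15 being higher with TBI and 1 lower, where 29.6% of all 26875 genes differed, 19.5% higher and 10% lower. Snord17 had the largest difference among genes with at least 1 CPM in a group, 4.63 ± 0.76 on the log2 scale (adjusted p = 0.00018 by edgeR), and Scarna6 had 4.08 ± 0.67 and Snord89 3.55 ± 0.84. The 1 gene lower was Snora28, at -1.43 ± 0.48 (adjusted p = 0.024), which by total counts was -0.10. The effects of a dose on Day 1 and on Day 0 differed in 18 of the 28 genes at the medium dose, 3 higher and 15 lower, where 42% of all genes differed, 15.7% higher and 26.3% lower. They differed in 14 at the high dose, 0 higher and 14 lower, where 36.7% of all genes differed, 13.1% higher and 23.6% lower. The high dose count was 16 with 1 higher by DESeq2, 15 with 1 higher by RLE, 15 of 24 tested with 1 higher by filterByExpr, and 18 with 2 higher without mice holding liver RNA, where the medium dose count was 15 with 2 higher. In the same order, 8987 of 25702, 9403 of 25702, 7556 of 16705, 9680 of 24697 and 9768 of 24803 of all genes differed. At the low dose 0 of the 28 differed by edgeR or DESeq2, where 7.69% of all genes did, 6.73% higher and 0.961% lower, and 0 of the 28 passed an unadjusted p of 0.05.

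Host genes were measured in the same libraries. By position 22 of the 28 lie wholly inside a gene on the same strand, and 8 of these lie in 6 ribosomal protein genes. At the medium and high dose host calls went both ways. Of 19 hosts tested, 5 were called higher and 3 lower at the medium dose, and 5 higher and 4 lower at the high dose, as shares 26.3% and 15.8%, then 26.3% and 21.1%, beside 18.2% and 30.6%, then 17.3% and 30.5%, of all genes. Rps12, host of Snora33 and Snord100, had log2 fold changes of 1.24 ± 0.10 and 1.28 ± 0.17, and both RNAs overlap an exon of it. Tpt1, host of Snora31, had 2.06 ± 0.25 and 2.24 ± 0.25. The RNAs that Rps12 and Tpt1 host were lower. Snord89 and its host, the noncoding gene Gm15832, had the same sign in these comparisons, with -2.90 ± 0.37 and -2.64 ± 0.54 for Gm15832 at the doses on Day 1 and 2.79 ± 0.37 and 2.58 ± 0.36 after TBI against Day 0 and Day 1. After TBI against Day 1, 6 of 19 hosts were lower and 1 higher (31.6% and 5.26%), beside 16.4% and 19.6% of all genes. The lower ones included Rps3 (-1.75 ± 0.16), Rpl13a (-1.84 ± 0.19) and Rpl3 (-1.36 ± 0.17). Against Day 0, 4 hosts were lower and 1 higher (21.1% and 5.26%), beside 11.8% and 15.1% of all genes. The difference between a host and its RNA was not tested. Reads from a host transcript that still holds its intron cannot be told apart from reads of the RNA itself, and 6 of the 28 overlap an exon of their host. These are Scarna10 (Ncapd2), Snora28 (Eif5), Snora2b (Kansl2), Snora73a (Snhg3), and Snora33 and Snord100 (Rps12). Reads of these RNAs and of the host exon could not be told apart by position. Scarna13 and Scarna3a overlap genes that are not counted as hosts, Mir3069 and Mir1843b, on the same strand.

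The mRNAs of proteins that bind these RNAs were lower in irradiated blood. Beside the counts that follow, 30.6% of all genes were called lower and 18.2% higher at the medium dose, 30.5% and 17.3% at the high dose, and 16.4% and 19.6% after TBI against Day 1. All 4 core box C/D proteins were called lower after TBI against vehicle Day 1, fibrillarin (Fbl) at -1.72 ± 0.41, Nop56 at -1.83 ± 0.27, Nop58 at -1.60 ± 0.25 and Snu13 at -1.27 ± 0.23 on the log2 scale. So were all 4 core box H/ACA proteins, dyskerin (Dkc1) at -1.33 ± 0.13, Nhp2 at -1.26 ± 0.38, Nop10 at -1.13 ± 0.33 and Gar1 at -2.03 ± 0.45. At the medium and the high dose on Day 1 alike, 2 of the 4 C/D proteins (Fbl and Nop56) and 1 of the 4 H/ACA proteins (Gar1, at -1.26 ± 0.28 and -1.30 ± 0.24) were called lower and 0 higher. Of 7 Cajal body and related proteins, 2 were lower and 1 (Ddx20, at 1.11 ± 0.13) higher at the medium dose, 1 lower and 0 higher at the high dose, and 3 lower and 0 higher after TBI. Coil, the coilin that marks Cajal bodies, was called lower at the medium dose (-1.80 ± 0.37), at the high dose (-1.22 ± 0.36) and after TBI (-1.54 ± 0.31). Of 10 assembly factors, 1 was lower and 2 higher at the medium dose, 3 lower and 1 higher at the high dose and 6 lower and 0 higher after TBI. After TBI against Day 0, 11.8% of all genes were called lower and 15.1% higher. There, 3 of the 4 C/D and 4 of the 4 H/ACA proteins were called lower and 0 higher. So were 2 of the 7 Cajal body and related proteins and 6 of the 10 assembly factors, again with 0 higher.

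Of 7 trimming and debranching enzymes tested, 2 were lower and 1 higher at the medium dose, 3 lower and 1 higher at the high dose and 4 lower and 1 higher after TBI against Day 1. Dbr1, which opens the intron lariats from which these RNAs are cut, was called lower in all 3 comparisons (-1.29 ± 0.21, -1.16 ± 0.35 and -1.48 ± 0.28). So was Exosc10, a catalytic subunit of the nuclear exosome (-1.03 ± 0.13, -1.07 ± 0.20 and -1.09 ± 0.21). Papd5, a poly(A) polymerase that acts on small RNA ends, was called higher in all 3 (1.97 ± 0.16, 1.97 ± 0.14 and 1.68 ± 0.27). After TBI against Day 0, 1 of the 7 enzymes was called lower and 1 higher. Of 21 noncoding genes listed as hosts and tested at the doses, 9 were lower and 1 higher at the medium dose and 10 lower and 0 higher at the high dose. Of 22 tested after TBI, 8 were lower and 2 higher against Day 1, and 7 lower and 0 higher against Day 0. The list also held Rmrp, the RNA of RNase MRP and not a host. Rmrp was among those lower at both doses and after TBI against Day 1 (-1.19 ± 0.29, -2.15 ± 0.27 and -1.94 ± 0.29). The 2 higher against Day 1 were Meg3 and Rian, with means of 0.79 and 0.84 CPM in irradiated mice. Their standard deviations there, 0.85 and 0.93 CPM, exceeded the means, so these mice differed widely.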

How the data were processed

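Whole blood of 60 mice in 10 groups of 6 was sequenced. The authors deposited raw counts of unique hits per gene, made with Subread 1.5.2 from STAR 2.5.2b alignments on GRCm38 after trimming by Trimmomatic 0.36. Annotation release and strand setting are not given in the sources used here. The study's methods describe ribosomal and globin RNA depletion, while the sample labels describe polyA selection, and this was not resolved. Doses and the radiation dose come from the methods. The deposited result tables hold the authors' fold changes and p-values, of which none was used, only the gene names.

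Counts were tested with edgeR 4.0.16 in R 4.3.3 (quasi-likelihood, TMM, at least 10 counts over a fit's mice, Benjamini-Hochberg adjustment over all genes), each pair of groups alone and interactions over 24 mice. Standard errors (SE, after ±) were derived as the absolute log2 fold change divided by the square root of the test's F statistic. CPM uses TMM-scaled library sizes over all mice. Alternatives were DESeq2 1.42.0, total counts, RLE, filterByExpr, no filter, mice holding liver RNA left out, and each mouse left out. The edgeR step was tested on simulated counts. Named genes were, per comparison, the 4 higher and 4 lower called with the largest fold change and a mean of at least 1 CPM in a group, the 4 with most reads per class, Snord13 and Snora73a, and the 3 largest interactions. Others were named after their values were seen, to account for every gene. Genes and lists were chosen with earlier results of these data known. Intervals and floors (95%, 3 counts) cover counting error only.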

Additional observations from a re-analysis of the deposited data

Results flagged for a closer look

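In 14 genes and 10 groups, 140 sets of 6 mice, 8 had a highest mouse far from the others by Dixon's test, and chance flags about 1 in 20. Snord104 reached 2.92 CPM in mouse 22 (high dose, Day 0), Snord89 1.07 in mouse 31 (low dose, Day 1) and 0.121 in mouse 43 (high dose, Day 1), and Snora28 3.79 in mouse 41 (medium dose, Day 1). Snora78 reached 1.18 and Snora73a 0.878 in mouse 4 (low dose, Day 0), Snord13 0.382 in mouse 57 (high dose with TBI) and Snora73a 0.833 in mouse 18 (vehicle, Day 0). Mice 43 and 57 held liver RNA.

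By a test of the difference in edgeR, 18 genes responded differently to the medium dose on Day 1 and Day 0, with Scarna6 at -2.38, Snora57 at -1.5 and Scarna13 at 1.5 on the log2 scale. For the high dose 14 did, with Scarna6 at -3.51, Snord17 at -2.95 and Snora57 at -2.74. The effect of the high dose on Day 1 differed with and without TBI in 16, with Snord17 at 4.63, Scarna6 at 4.08 and Snord89 at 3.55. These tests called 42%, 36.7% and 29.6% of all genes, in the same order.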

How the results depend on the processing

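By total counts 7 of the 28 genes were called at the low dose on Day 0, and 15 and 24 differed between days at the low and high dose, where all genes shifted by a median of -0.97 and -1.23 on the log2 scale. In the same order, 2870 of 24485, 10577 of 26323 and 14107 of 25702 of all genes were called. Among 88 results for single genes that were followed through the settings, 7 turned sign by total counts. At the medium dose on Day 1 they were Snora28 (-0.45), Snord104 (-0.64) and Snord15a (-1.23). At the high dose they were Scarna13 (-0.55), Snora28 (-0.44) and Snord104 (-1.28), and after TBI against Day 1 Scarna13 (-0.052). Other results of the 28 genes were not followed in this way. DESeq2 called 1 of the 28 higher between the vehicle groups, where 37 of all 24375 genes were called, 1 higher and 36 lower. With filterByExpr, which tested fewer genes, 13 were called at the medium and 11 at the high dose on Day 1, and 5 and 11 after TBI against Day 0 and Day 1. In the same order, 7577 of 15255, 7628 of 15204, 5059 of 15602 and 6438 of 16117 of all genes were called. Without mice holding liver RNA 13 were called after TBI against Day 1, and Scarna2 there was 0.15. Leaving out each mouse gave 18 to 22 calls among the 28 at the medium dose, 15 to 19 at the high dose, 9 to 13 and 15 to 20 after TBI against Day 0 and Day 1, and 0 in the other pairs of groups. With all mice, 48.8%, 47.8%, 26.9% and 36% of all genes were called, in the order of the doses and TBI comparisons. The shares of all genes with 1 mouse left out are not given here. Snord15a at the medium dose then ran from -0.027 to 0.29, and Scarna2 after TBI against Day 1 from -0.33 to 0.026. Of the 88 results for single genes, 84 kept direction and call under DESeq2, 84 under RLE, 74 by total counts and 74 without mice holding liver RNA. Without those mice 13 became weaker and 1 turned sign. The cause of these changes was not tested. No paired analysis was possible because each mouse number belongs to 1 group. Most of the 28 genes had few counts, which limits what small differences could be detected.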
